A study of Mus musculus with 4 samples.

Results

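The complement system was followed through 9 genes in single blood cells of mice: the C1q chains C1qa, C1qb and C1qc, the lectin pathway recognition protein Fcna, the components C4b and C3, the alternative pathway stabilizer Cfp, and the anaphylatoxin receptors C5ar1 and C3ar1. They were taken by symbol and are 9 of the 32285 genes counted. A list of 56 complement genes, holding the 9, was read beside them. The series asked how age and genetic background shape the blood of mice. It sampled peripheral blood mononuclear cells of 2 inbred strains, labelled BL/6 and SM/J, at 12 and 20 months of age. Blood came from the heart, and the mononuclear cells were taken over a density gradient, spun to reduce platelets and lysed of red cells. Both ages of a strain were tagged and run as 1 multiplexed 10x Genomics 3' sample, and the deposited files divide each run by age into 4 libraries in all.

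Complement is a cascade of plasma proteins that marks microbes and cell debris for uptake. The classical pathway starts when C1q, a bundle of A, B and C chains, binds immune complexes or dying cells, and the lectin pathway starts when ficolins or collectins bind sugars; both lead to the cutting of C4, then of C3. Properdin, the product of Cfp, stabilizes the alternative pathway enzyme that cuts more C3, and the released fragments C3a and C5a act on C3AR1 and C5AR1. The liver makes most plasma complement, but tissue macrophages are the chief source of C1q, and myeloid cells make properdin.

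Each strain and age gave 1 library, so no difference between them could be tested. Intervals here are 95% intervals for counting error only. Every library carried 3 tag oligos, and cells sharing a leading tag are called an aliquot; no source used here says whether an aliquot is an animal, so aliquots show spread within a library and were not treated as replicates. A difference of strain therefore cannot be told apart from one of run. A UMI is 1 counted molecule, and CPM is the UMIs of a gene per 1000000 UMIs of all genes in the same class and library. A gene was called different when its log2 ratio of CPM + 1 was at least 1 in size, with at least 50 UMIs over both libraries. A 3' library counts a transcript once whatever its length, so CPM was not divided by length.

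After filtering, 11591 of 12299 cells remained, 2405 to 3400 a library, with 13682013 to 29495784 UMIs a library. Cavity-type macrophages were the cells with 5 or more UMIs of Prg4, a gene of large peritoneal macrophages: 29 and 38 cells of BL/6 and 35 and 397 cells of SM/J, the younger library first. All 8 markers of cavity macrophages, among them Gata6 and Timd4, had UMIs in each library. The 5 fibroblast markers were at 0 in both BL/6 libraries, and in SM/J only Dcn had UMIs, at 1.94 and 0.514 CPM. Of splenic macrophage markers, Spic and Vcam1 were at 0 in all but 20-month SM/J (0.342 and 0.856 CPM), but Hmox1 was at 40.3 to 101 CPM. Of liver macrophage markers, Clec4f was at 0 in all but 20-month SM/J (0.342 CPM). The others, Vsig4, Cd5l and Marco, were at 242 to 533, 385 to 898 and 36.8 to 516 CPM. Labels call the tissue peripheral blood, where such cells are not a usual class. Haemoglobin and other erythroid markers summed to 5492 CPM in these cells of 12-month SM/J, against 34.1 to 773 CPM in the other libraries, and B cell markers to 423 CPM in 20-month SM/J, against 197 to 283 CPM. Of these B cell markers, Bank1 alone was at 183 to 234 CPM in every library. Cd79a was at 89.0 CPM in 20-month SM/J, against 5.11 to 15.5 CPM, and Cd79b at 62.1 CPM, against 2.01 to 13.6 CPM. The part of the erythroid markers was not tested. Without cavity-type macrophages of 3 or more Cd79a UMIs, Cd79a being a B cell marker, an alternative chosen after seeing the data, each of the 9 genes stayed on the same side of the 2-fold limit between ages and between strains. The other classes came from clustering without complement genes and are named as "-like" from marker genes. Monocyte-like cells of the strains fell into different clusters, number 4 in BL/6 and 24 in SM/J for classical ones, and numbers 6 and 22 for nonclassical ones. Platelet-like cells were named in BL/6 only; SM/J cells of that kind lay in a shallow cluster that stayed unnamed. No barcode was shared between libraries of the same run, and 8 were shared between runs.

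The C1q chains were read first. C1qa lies at chr4:136895917-136898803, C1qc at chr4:136889804-136893065 and C1qb at chr4:136880129-136886187, all on the minus strand of GRCm38 in GENCODE M21, so the 3 genes sit side by side. The cavity-type macrophages held 79.0% to 96.3% of all C1q UMIs of a library. In them C1qa was at 2379.8 CPM (2246 to 2519) in 12-month BL/6, 2771 CPM in 20-month BL/6, 3658 CPM in 12-month SM/J and 3595 CPM (3546 to 3644) in 20-month SM/J. C1qb was at 2148, 2666, 1702 and 2126 CPM in the same order, and C1qc at 1723, 1757, 1307 and 1394 CPM. Summed, C1q was at 6251, 7194, 6667 and 7115 CPM. The summed level thus moved little beside the number of such cells. A C1qa UMI was found in all cavity-type macrophages but 1 of the 38 cells of 20-month BL/6.

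The chains were not balanced alike in the strains. C1qa UMIs per C1qb UMI came to 1.11 (1.02 to 1.20) in 12-month BL/6, 1.04 (0.969 to 1.12) in 20-month BL/6, 2.15 (1.98 to 2.33) in 12-month SM/J and 1.69 (1.65 to 1.73) in 20-month SM/J. Aliquots of BL/6 ranged from 0.975 to 1.18 and those of SM/J from 1.66 to 2.36, so the strains did not overlap. C1qc per C1qb stood closer, at 0.802, 0.659, 0.768 and 0.656.

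The sequence before the start of C1qb and C1qc is shown because the neighbours share their cell type; the 250 bases upstream are RefSeq's for build GRCm38.p6, minus strand, at chr4:136886201-136886450 and chr4:136892915-136893164, written 5′ to 3′. RefSeq starts C1qc within the GENCODE gene, so that window overlaps the gene as placed above. Capitals mark GAGGAA, the core bound by PU.1, and TGCTGA, the core of MAF sites, on either strand. Of 32851 promoters of this length 23.3% held GAGGAA and 16.1% held TGCTGA. Both windows had 1 GAGGAA, and TGCTGA was in that of C1qb alone.
C1qb: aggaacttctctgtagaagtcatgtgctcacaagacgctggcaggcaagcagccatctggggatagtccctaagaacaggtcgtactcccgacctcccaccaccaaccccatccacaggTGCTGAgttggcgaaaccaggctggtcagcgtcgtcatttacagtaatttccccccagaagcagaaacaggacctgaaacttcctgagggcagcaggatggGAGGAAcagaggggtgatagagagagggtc
C1qc: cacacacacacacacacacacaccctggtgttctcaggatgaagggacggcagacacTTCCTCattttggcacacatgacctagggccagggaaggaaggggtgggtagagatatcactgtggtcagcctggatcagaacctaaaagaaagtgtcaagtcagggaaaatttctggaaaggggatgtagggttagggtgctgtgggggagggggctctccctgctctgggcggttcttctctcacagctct

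**Figure D1:**
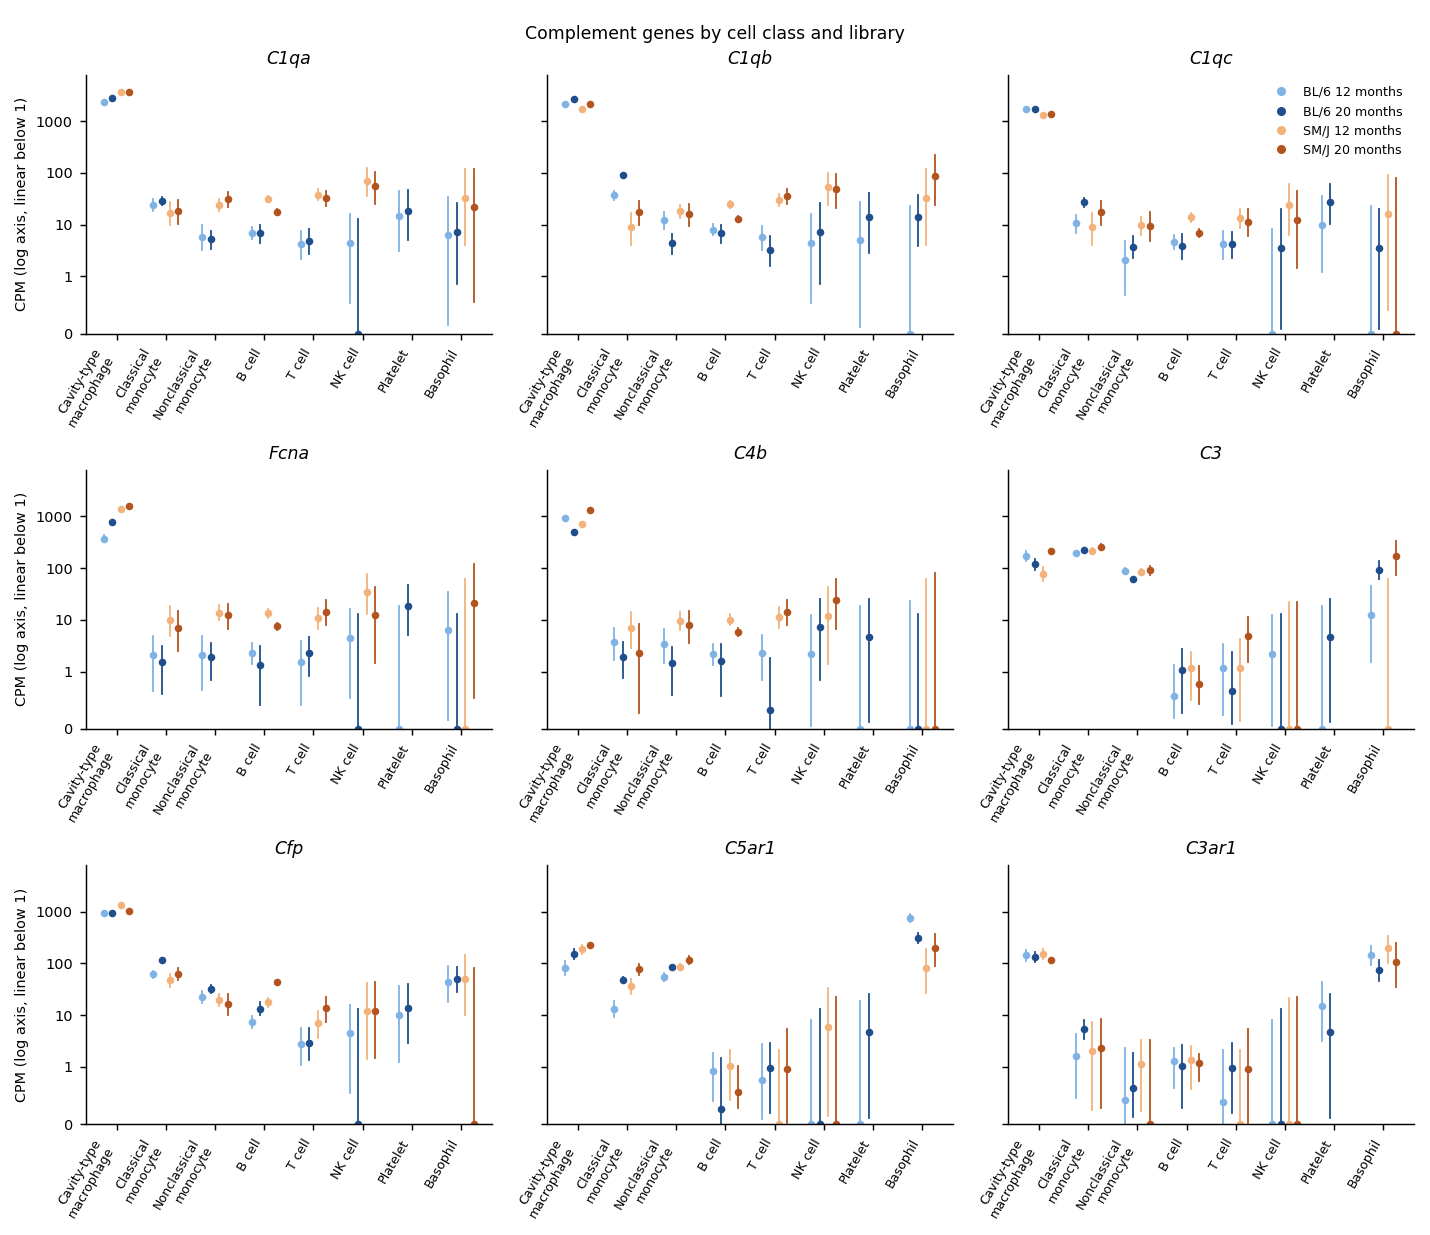
Level of each gene in CPM (log axis, linear below 1) by cell class; points are libraries and bars 95% Poisson intervals for counting error. The C1q chains, Fcna and C4b stand at 372 CPM or more in cavity-type macrophages and below 100 CPM in the other classes shown, whereas C3 and C5ar1 are also seen in monocyte-like cells.

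C1q UMIs were also found in lymphocytes, which are not known to make it. The level was higher in SM/J than in BL/6, and strain and run cannot be told apart. B, T and NK cell-like cells together held 8.25 C1q UMIs per 100 cells (7.17 to 9.45) in 12-month BL/6, 6.98 (5.72 to 8.42) in 20-month BL/6, 37.7 (34.9 to 40.7) in 12-month SM/J and 44.1 (41.2 to 47.2) in 20-month SM/J. The SM/J ages, with 35 and 397 cavity-type macrophages, were in 1 run, and their intervals did not overlap. The part of free RNA was not tested. B cell-like cells of 20-month SM/J had 45.5 per 100 cells and T cell-like cells 35.6, with median depths of 9613 and 4012 UMIs. Fcna, C4b and Prg4, also of the macrophages, were found in SM/J lymphocytes at 7.76, 6.18 and 18.3 UMIs per 100 cells, and in BL/6 ones at 0.928, 0.855 and 4.64. Platelet-like cells of BL/6 held 3.97 and 7.51 C1q UMIs per 100 cells at 12 and 20 months, with intervals that overlapped those of lymphocytes. The unnamed shallow cluster of SM/J held 30.8 (18.8 to 47.5) in 65 cells at 12 months and 65.2 (36.5 to 108) in 23 cells at 20 months, and these intervals too overlapped those of its lymphocytes. In CPM the C1q level of B and T cell-like cells was 12.4 to 19.6 where the strain was BL/6 and 37.7 to 81.7 where it was SM/J. In lymphocytes of the SM/J run there were 684 C1qa against 522 C1qb UMIs, beside 22888 against 13295 in its cavity-type macrophages.

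**Figure D2:**
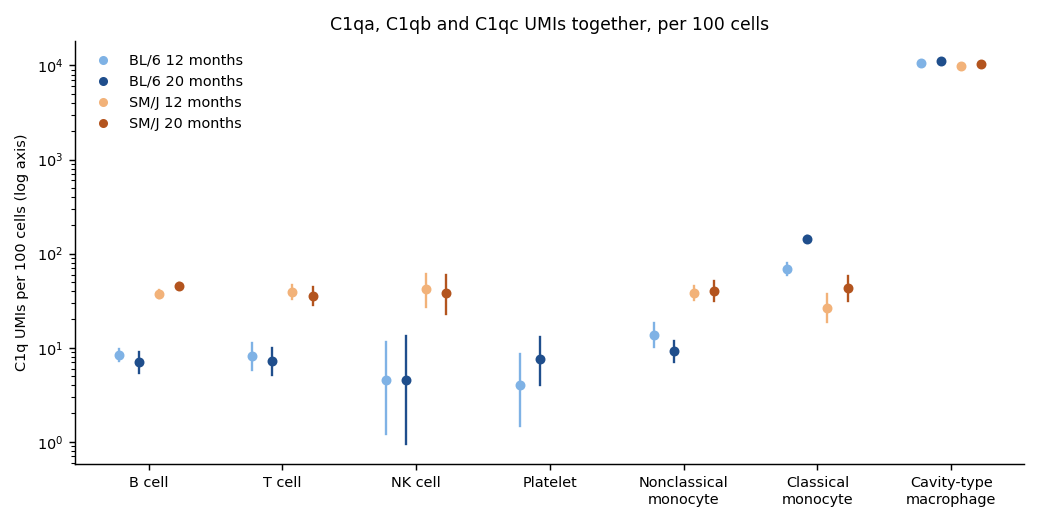
UMIs of the 3 C1q chains per 100 cells (log axis) by cell class; points are libraries and bars 95% Poisson intervals. BL/6 lymphocytes lie at 4.49 to 8.43 and SM/J ones at 35.6 to 45.5, nonclassical monocyte-like cells near them, and classical monocyte-like cells of BL/6 above them at 68.8 and 142; at 20 months the contrast of strains in classical cells turned with other classes.

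Beside the level in lymphocytes, C1q in monocyte-like cells differed between classes. Nonclassical monocyte-like cells had 13.8 (10.2 to 18.3) and 9.16 (7.05 to 11.7) C1q UMIs per 100 cells in the younger and older BL/6 library. The younger value lay above its lymphocytes, and 13 of its 48 C1q UMIs were C1qb in 1 cell. In SM/J they had 38.3 and 40.4, within the intervals of its lymphocytes or just below. The classical ones of SM/J, at 26.7 and 43.0, lay at or below theirs. Classical monocyte-like cells of BL/6 had 68.8 (58.9 to 79.8) at 12 months and 142 (131 to 153) at 20 months, well above. C1qb led there, at 37.1 and 91.1 CPM, with C1qa at 23.9 and 28.2 CPM and C1qc at 10.7 and 26.9 CPM.

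Most of these molecules sat in few cells. Cells with 3 or more C1qb UMIs numbered 7 of 253 (2.77%, exact interval 1.12 to 5.62) at 12 months and 31 of 475 (6.53%, 4.48 to 9.14) at 20 months, and held 81.1% and 89.5% of the C1qb UMIs. They came from all 3 aliquots, as 4, 2 and 1 cells and as 9, 10 and 12 cells. The highest cells had 26 and 57 C1qb UMIs, while B cell-like cells of BL/6 reached 2. In SM/J no classical monocyte-like cell had 3: 0 of 131 and 0 of 107 cells, whose intervals reach 2.78% and 3.39%. This contrast of strains depended on the classes: the log2 ratio of C1qb at 20 months, SM/J over BL/6, was -2.34, but 0.95 with 3 or more Prg4 UMIs as the limit for cavity-type macrophages and 0.97 with classes from a marker gate. Of the 31 cells, 20 also had C1qa and 25 had C1qc. They had the monocyte receptor Ccr2 at 1224 CPM, against 1270.3 CPM in the other classical cells, and no UMI of Gata6 or Timd4. Prg4, by which the macrophages had been taken out, was at 9.34 against 4.20 CPM. The other classical monocyte markers were lower in them: Ly6c2 (125 against 399 CPM), Vcan (6.23 against 47.8 CPM), Chil3 (436 against 1583 CPM), Fn1 (414 against 913 CPM) and F13a1 (567 against 964 CPM). C3 was at 81.0 against 239.8 CPM; the antigen presentation gene H2-Ab1 (4040 against 879 CPM) and Apoe (5740 against 3029 CPM), chosen after their values were seen, were higher. Without the cells of 3 or more C1qb UMIs, an alternative chosen after seeing the data, C1qb was at 7.19 and 10.3 CPM.

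**Figure D3:**
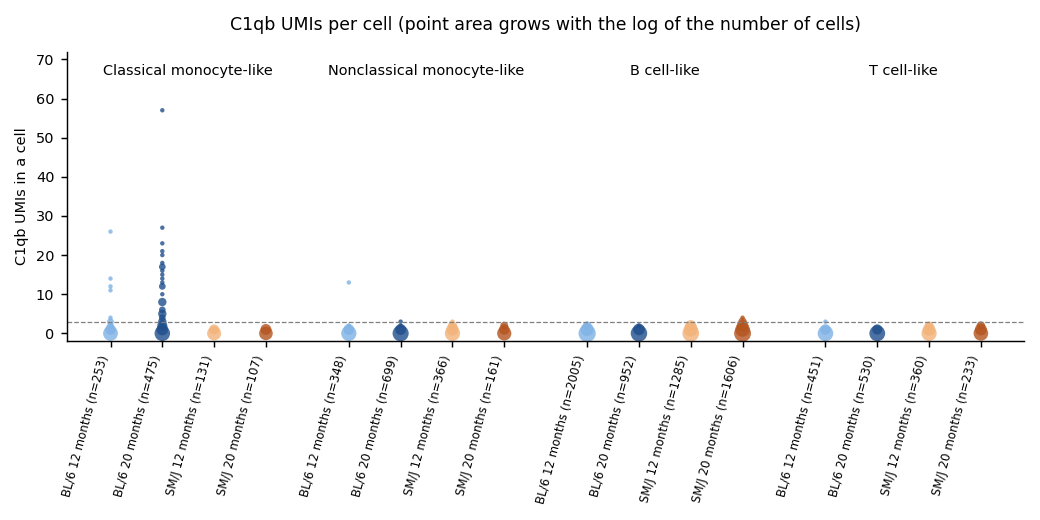
C1qb UMIs in single cells by class and library; the area of a point grows with the log of the number of cells and the dashed line marks 3 UMIs. Classical monocyte-like cells of BL/6 reach 26 and 57 UMIs, and those of SM/J reach 1; the contrast of strains at 20 months turned with other classes.

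Fcna, which encodes ficolin A, a sugar-binding starter of the lectin pathway, lies at chr2:25624666-25628030 on the minus strand and overlaps the antisense gene Fcnaos. In cavity-type macrophages it was at 372 CPM (321 to 430.2) in 12-month BL/6, 777 CPM (707 to 852) in 20-month BL/6, 1400.0 CPM (1300 to 1506) in 12-month SM/J and 1558 CPM (1526 to 1590.1) in 20-month SM/J. SM/J was above BL/6 by 1.91 (1.67 to 2.15) on the log2 scale at 12 months (1.23 with a mitochondrial limit of 5%) and by 1.00 (0.87 to 1.14) at 20 months, and the aliquots of the strains did not overlap at either age. Aliquots of 12-month BL/6 spread from 177 to 839 CPM, around those of 20-month BL/6 (678 to 838 CPM), so the age ratio of 1.06 in BL/6 was within the spread of aliquots. Without aliquot 1 of 12-month BL/6 the strain ratio at 12 months was 1.38, and without aliquot 2 it was 2.29. At 20 months it was 0.92 without aliquot 2 of 20-month BL/6, short of the 2-fold call; the BL/6 age ratio was 0.54 without aliquot 1 of 12-month BL/6. Fcnaos had 20 UMIs in all kept cells. The upstream 250 bases of Fcna, at chr2:25627975-25628224 on the minus strand, overlap the start of the GENCODE gene. They are shown for the 3 GAGGAA and 2 TGCTGA in capitals. The windows of C5ar1 and C3ar1, not shown, held 1 TGCTGA each and no GAGGAA, and that of Cfp held neither.
Fcna: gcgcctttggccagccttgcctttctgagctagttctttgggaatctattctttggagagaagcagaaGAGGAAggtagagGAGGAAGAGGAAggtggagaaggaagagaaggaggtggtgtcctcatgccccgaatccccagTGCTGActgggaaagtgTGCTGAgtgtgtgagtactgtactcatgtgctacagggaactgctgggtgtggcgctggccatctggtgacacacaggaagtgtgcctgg

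C4b encodes C4, cut by both starting pathways, at chr17:34728380-34743882 on the minus strand. Its near-identical copy C4a, at chr17:34809092-34823464, had 43 UMIs beside 9607 of C4b, and reads of the pair may be split or lost in counting. In cavity-type macrophages C4b was at 920.1 CPM (838 to 1008) in 12-month BL/6, 494 CPM (439 to 555) in 20-month BL/6, 720.3 CPM (649 to 797) in 12-month SM/J and 1329.5 CPM (1300.1 to 1359) in 20-month SM/J. BL/6 was lower at 20 months by a log2 ratio of -0.90 (-1.11 to -0.68), SM/J higher by 0.88 (0.73 to 1.04). Aliquots ran from 757 to 1128 CPM and then 441 to 547 CPM in BL/6, and from 624 to 789 CPM and then 1282 to 1371 CPM in SM/J. The ages thus did not overlap in either strain and stood in opposite order, which was not tested; aliquots were apart in opposite ways for 2.77% of 3327 genes. C4b was at 9.70 CPM or less in monocyte-like cells, with 2.30 to 9.70 CPM in SM/J beside 5.83 to 10.1 CPM in its B cell-like cells.

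**Figure D4:**
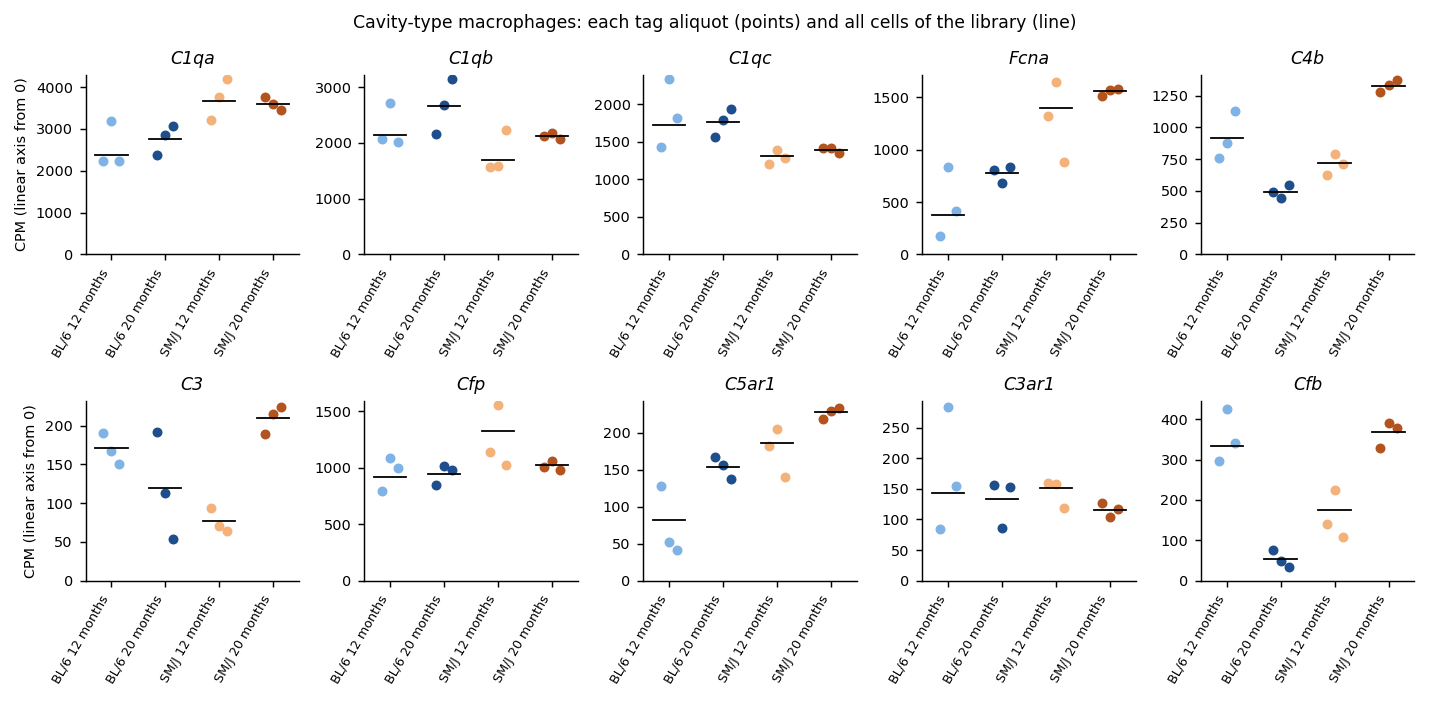
Level in CPM (linear axes from 0) in cavity-type macrophages for the 9 genes and Cfb; each point is 1 tag aliquot and the line is the level over all cells of the library. C4b and Cfb are lower at 20 months in BL/6 and higher at 20 months in SM/J, and C1qa is higher in SM/J at both ages.

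C3, the protein on which all pathways meet, lies at chr17:57203970-57228136 on the minus strand. Classical ones had 196 CPM (179 to 215) in 12-month BL/6, 229 CPM in 20-month BL/6, 212 CPM in 12-month SM/J and 255 CPM (223 to 291) in 20-month SM/J. Nonclassical ones had 88.5, 60.7, 83.5 and 91.7 CPM in that order, below the classical ones of every library. B cell-like cells had 0.580 to 1.19 CPM. After each cell was thinned to 1000 UMIs, a C3 UMI was left in 16.5% to 22.4% of classical, 5.59% to 9.38% of nonclassical and at most 0.235% of B cell-like cells; unthinned, the shares were 63.4% to 72.9%, 27.9% to 33.5% and 0.249% to 0.934%. No library of classical monocyte-like cells was called against another for C3.

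In cavity-type macrophages C3 moved more. It was at 171 CPM (137 to 212), 119 CPM (93.0 to 151), 77.5 CPM (55.3 to 105) and 210.1 CPM (198 to 222) in the same order of libraries. The age ratio was 1.43 (0.98 to 1.91) in SM/J and -0.52 (-0.99 to -0.05) in BL/6, where aliquots overlapped. With a mitochondrial limit of 5% in place of 10%, the SM/J ratio was 0.69. The SM/J value at 12 months rests on 40 UMIs of 35 cells. The upstream window of C3, chr17:57228137-57228386 on the minus strand, is shown as that of a gene found in macrophages and both monocyte classes; capitals mark 1 TGCTGA on the other strand and 1 TTGCNNAA, a C/EBP-type motif that 9.56% of all windows held, and GAGGAA was not in it.
C3: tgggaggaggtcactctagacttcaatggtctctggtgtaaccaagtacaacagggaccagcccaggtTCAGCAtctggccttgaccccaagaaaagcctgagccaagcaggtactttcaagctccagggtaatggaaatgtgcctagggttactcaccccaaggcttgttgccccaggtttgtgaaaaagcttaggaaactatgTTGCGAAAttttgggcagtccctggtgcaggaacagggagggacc

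Cfp, the gene of properdin, lies at chrX:20925454-20931555 on the minus strand. In cavity-type macrophages it was at 920.1 CPM in 12-month BL/6, 948 CPM in 20-month BL/6, 1321 CPM in 12-month SM/J and 1021 CPM in 20-month SM/J, with overlapping aliquots in each comparison. Classical monocyte-like cells had 61.4 CPM (51.9 to 72.1), 116 CPM (106 to 126), 46.9 CPM (34.5 to 62.4) and 62.1 CPM (46.6 to 81.0). BL/6 was thus higher at 20 months by 0.91 (0.64 to 1.17), with aliquots of 49.7 to 71.5 CPM and then 96.9 to 132 CPM. Nonclassical monocyte-like cells had 16.6 to 31.9 CPM.

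Cfp was also found in B cell-like cells, at 7.42 and 13.4 CPM in BL/6 and 17.6 and 43.6 CPM in SM/J at 12 and 20 months, beside 2.71 to 13.4 CPM in T cell-like cells. In 20-month SM/J the cluster of B cell-like cells led by Krt18, seen in that library with 843 cells, had 53.1 CPM (49.2 to 57.3) and a Cfp UMI in 345 cells. It held 79.4 Cfp and 50.8 C1q UMIs per 100 cells, while the cavity-type macrophages of the library held 1503 and 10468. These B cell-like cells thus had more Cfp than C1q, the reverse of the macrophages. The cluster was not alone in this. A cluster of 67 B cell-like cells led by Pclaf in the same library had 46.1 CPM (38.4 to 54.8), with a Cfp UMI in 70.1% of cells, and cluster number 2, led by Agbl1, had 52.3 CPM (36.0 to 73.5) in 158 cells of 20-month BL/6, with 20.9 Cfp and 9.49 C1q UMIs per 100 cells. In 12-month BL/6 that cluster had 10.3 Cfp and 9.52 C1q UMIs per 100 cells, and in 12-month SM/J 10.1 and 37.7. Cluster number 7, also led by Agbl1, had 9.13 and 6.75 in 252 cells of 12-month BL/6, and 4 Cfp UMIs in 87 cells of 20-month BL/6 beside 12.6 C1q UMIs per 100 cells. The balance thus differed among clusters and libraries. Median depths were 12502, 27583 and 3471 UMIs in the Krt18, Pclaf and number 2 clusters of the older libraries.

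C5ar1, the receptor for C5a on phagocytes, lies at chr7:16246743-16259540 on the minus strand. Among monocyte-like cells the nonclassical ones had more of it: 55.5 CPM (46.5 to 65.8) in 12-month BL/6, 83.2 CPM (75.3 to 91.8) in 20-month BL/6, 83.5 CPM (73.0 to 95.2) in 12-month SM/J and 117 CPM (98.1 to 139) in 20-month SM/J. Classical ones had 13.2 CPM (9.02 to 18.6), 47.1 CPM (41.0 to 53.8), 36.0 CPM (25.2 to 49.8) and 77.0 CPM (59.7 to 97.8). B cell-like cells stood at 0.262 to 1.04 CPM. In both strains and both monocyte classes the older library was higher. For classical cells of BL/6 the age ratio was 1.76 (1.25 to 2.30), for those of SM/J 1.08 (0.49 to 1.69), and no aliquot of 12 months reached one of 20 months in either strain. In nonclassical cells it was 0.57 (0.29 to 0.86) and 0.48 (0.16 to 0.79), with overlapping aliquots. Without aliquot 3 of 12-month BL/6 the classical ratio in BL/6 was 2.45, and the whole range over aliquots left out was 1.37 to 2.45. The SM/J ratio ended below the 2-fold call, at 0.83 and 0.96, without aliquot 1 of 12 months or aliquot 2 of 20 months.

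In cavity-type macrophages C5ar1 was at 82.5 CPM (59.2 to 112), 153 CPM (123 to 189), 186 CPM (151 to 227) and 227 CPM (215 to 240) in the same order. Basophil-like cells had 756 CPM (628 to 904) in 12-month BL/6, 315 CPM (252 to 388) in 20-month BL/6, 81.7 CPM (26.5 to 191) in 12-month SM/J and 194 CPM (88.7 to 368) in 20-month SM/J, from 39, 55, 15 and 11 cells. The few neutrophil-like cells, 4, 11 and 11 in BL/6 at both ages and 20-month SM/J, were at 696, 1007 and 522 CPM. Neutrophil-like cells and basophil-like cells of BL/6 thus had the highest levels of the classes named here, and their intervals overlapped at 12 months.

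C3ar1, the receptor for C3a, lies at chr6:122847138-122856161 on the minus strand and had another pattern than C5ar1. Cavity-type macrophages had 143 CPM (112 to 180.3), 133 CPM (105 to 166), 151 CPM (119 to 189) and 115 CPM (106 to 124), with overlapping aliquots between strains and between ages. Basophil-like cells had 144, 75.1, 196 and 108 CPM. Classical monocyte-like cells had 1.65, 5.42, 2.00 and 2.30 CPM and nonclassical ones 1.12 CPM or less, beside 1.05 to 1.33 CPM in B cell-like cells. In 20-month BL/6 the classical cells (3.51 to 8.01 CPM) lay above the B cell-like cells of that library (1.05 CPM, 0.286 to 2.68), and in the other libraries the intervals overlapped.

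Counted over the 9 genes, few passed the 2-fold call. In cavity-type macrophages all 9 had the 50 UMIs needed in each comparison. Between ages of BL/6, 1 gene was called, Fcna, where 5.70% of 3332 genes were called; aliquots did not overlap for C5ar1 and C4b, against 16.1% of genes. Between ages of SM/J 1 was called, C3, where 7.44% of 8412 genes were; aliquots were apart for C3, C4b and C5ar1, against 19.7%. SM/J against BL/6 gave 3 at 12 months, Fcna and C5ar1 higher and C3 lower, beside 10.3% of genes, and 2 at 20 months, Fcna and C4b higher, beside 13.1%. The call of Fcna at 12 months and that of C4b held in every alternative run. Fcna at 20 months, at the limit, was 0.97 with TMM scaling, a scaling that trims the genes of largest change, 0.99 with called doublets kept and 0.96 with 3 or more Prg4 UMIs. Its ratio between ages of BL/6 was 0.99 with TMM scaling and 0.84 at a mitochondrial limit of 5%. At that limit C3 and C5ar1 at 12 months also missed the call, at -0.70 and 0.94, as they did without aliquot 1 of 12-month BL/6 (C3, -0.99) or aliquot 3 (C5ar1, 0.77). Aliquots of the strains were apart for 5 genes at 12 months and 5 at 20 months, against 23.2% and 32.4%. The median ratio of the 9 was 0.04 in BL/6 and 0.15 in SM/J between ages, beside 0.07 and 0.00 over all genes. The ratios of both strains share no library, but the comparisons of ages and strains share libraries with each other.

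In classical monocyte-like cells 6 of the 9 genes had enough UMIs in BL/6, and C1qb, C1qc and C5ar1 were higher at 20 months, where 3.23% of genes were called in either direction. Aliquots were apart for 5 of the 6, against 24.3% of genes. Without aliquot 3 of 12-month BL/6 the ratios of C1qb and C1qc were 0.85 and 0.91 and their calls ended, while that of C5ar1 held in every alternative run. In SM/J 3 genes had enough, and C5ar1 was called, beside 2.94%; its aliquots were apart, against 18.2% of genes. Between strains C5ar1 was higher and C1qb lower in 12-month SM/J, of 5 genes, beside 6.75%, and C1qb was lower at 20 months, of 6 genes, beside 7.38%. The C5ar1 ratio of 1.38 was 0.93 with 3 or more Prg4 UMIs, 0.99 with 10 or more, 0.87 with the marker gate and 0.99 without aliquot 1 of 12-month BL/6. The Cfp ratio between strains at 20 months (-0.89) turned with the classes as that of C1qb did, to 0.63 with 3 or more Prg4 UMIs and 0.25 with the marker gate. In nonclassical monocyte-like cells 1 of 4 genes was called between ages of BL/6, C1qb, lower at 20 months on 29 and 21 UMIs, beside 2.91%, and 0 of 6 in SM/J, beside 1.41%. That call ended under 7 of the alternatives: the ratio of -1.28 was -0.37 without aliquot 3 of 12-month BL/6, which held the cell with 13 of the 29 UMIs, and -0.59 at a mitochondrial limit of 5%. C1qa was called higher in SM/J at 12 and 20 months, beside 7.09% and 5.85%, at 24.2 and 31.4 CPM against 32.0 and 17.9 CPM in B cell-like cells of the same libraries. T cell-like cells there had 38.25 and 32.5 CPM, and NK cell-like cells 70.4 and 54.7 CPM. B cell-like cells of the strains also lay in different clusters, in BL/6 mostly numbers 0 and 1, in 12-month SM/J 15 and 19, and in 20-month SM/J number 26 with 52.5% of them. In these cells 0 of 4 genes were called between ages of BL/6, beside 1.41%, and 1 of 6 between ages of SM/J, Cfp, beside 11.5%. Between strains 6 of 6 were called at 12 months and 4 of 6 at 20 months, beside 9.18% and 26.6%, each higher in SM/J; these were Cfp, C1qa, Fcna and C4b at both ages and C1qb and C1qc at 12 months, and the part of free RNA was not tested.

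**Figure D5:**
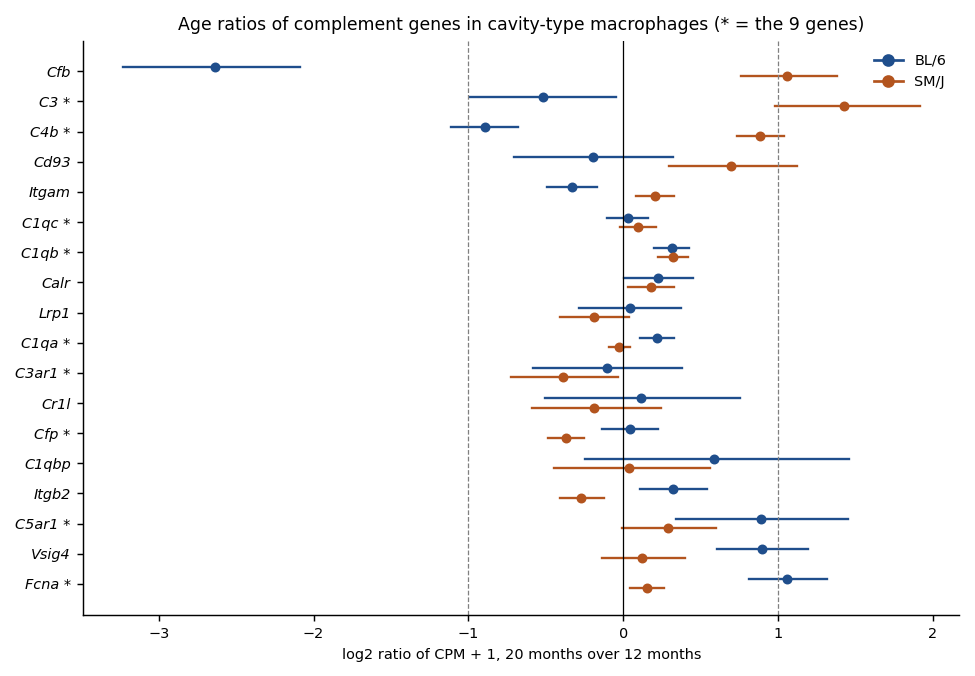
Log2 ratio of CPM + 1 at 20 over 12 months in cavity-type macrophages for 18 of the 19 complement genes with enough UMIs in both strains; bars are 95% intervals for counting error, dashed lines mark 2-fold and stars the 9 genes. Cfb, C3 and C4b lie below 0 in BL/6 and above 0 in SM/J, and the C1q chains lie near 0 in both.

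The wider complement list put these in place. Of 56 genes, 19 had enough UMIs in cavity-type macrophages between ages of BL/6 and 22 in SM/J. In BL/6, 1 was higher (Fcna) and 1 lower (Cfb) at 20 months; in SM/J, 2 were higher (Cfb and C3, neither at a mitochondrial limit of 5%). Of all genes 5.70% and 7.44% were called. Cfb, the enzyme of the alternative pathway, was at 334 CPM and then 52.8 CPM in BL/6 and at 176 CPM and then 368 CPM in SM/J, so it stood in the same order as C4b. In classical monocyte-like cells Cfb was at 32.6 and 5.64 CPM in BL/6 and 43.0 and 20.7 CPM in SM/J, lower at 20 months in both, though the SM/J ratio of -1.02 was 0.34 with classes from a marker gate. There 5 of 19 genes were higher at 20 months in BL/6 (Cd93, C1qb, C1qc, C5ar1 and Clu; the first 3 were not called without aliquot 3 of 12-month BL/6) and 3 of 13 in SM/J (Cd93, C5ar1 and Colec12), beside 3.23% and 2.94% of all genes called in either direction; aliquots of the ages overlapped for Colec12. Cd59a, a membrane regulator of the terminal complex, was at 0.928 and 12.3 CPM in B cell-like cells of BL/6 and 22.1 and 16.0 CPM in those of SM/J, where aliquots of the ages were apart in opposite ways; 8.64% of genes in these cells did so. Colec12, a scavenger receptor with a collectin domain, was at 12.9 and 30.04 CPM in nonclassical cells of BL/6 and 303 and 318 CPM in SM/J.

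Genes whose pattern was most like that of a member were found by Pearson r of log2(CPM + 1) over the 25 units of class and library with 50 or more cells, of which 1 was cavity-type macrophages. For C1q they were Lrg1 (0.92), Prtn3 (0.88) and Prg4 (0.88, the gene that chose those cells). For C3 they were Rnd3, Msantd3 and Peli2 (each 0.97), for Cfp Wfdc17 (0.91), Mt1 (0.87) and Fn1 (0.85), for C5ar1 Clec4e (0.95), Nlrp3 (0.95) and Hnmt (0.94), and for C3ar1 Cd63 (0.86), Cenpb (0.83) and Rnf144b (0.81). The units share libraries and depth, and these are descriptions without a test. With units of 25 or more cells, 34 in all and 4 of them cavity-type macrophages, Lrg1, Wfdc17, Fn1, Clec4e, Nlrp3 and Cd63 were again among the first 3 of their gene.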

How the data were processed

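The authors deposited unscaled UMI counts for 4 libraries, made with Cell Ranger 7.0.1, per the file headers, on build mm10, per the submitters' processing notes; the annotation is not given in the sources used here. Positions are from GENCODE M21 (GRCm38), promoters from RefSeq (GRCm38.p6; 7 of the 9 genes matched). The members and lists were chosen with earlier results of these data known.

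Cells had at least 500 UMIs, 200 genes and at most 10% mitochondrial UMIs; Scrublet, as run in scanpy 1.11.5, called 130 doublets (1.09%), which were left out. The 2000 variable genes, without complement genes, gave 30 principal components, 15 neighbours and 27 Leiden clusters at resolution 1. Clusters were named by marker lists; 3 stayed unnamed by rules set after seeing them (mixed lineages, shallow cells, leading genes against the name). All 9 genes are described, and other genes by fixed lists; 1 listed gene is counted but its values are not reported here. UMIs were summed per class and library; ratios use a pseudocount of 1 CPM and binomial intervals, levels exact Poisson intervals, shares Clopper-Pearson ones. Software was Python 3.11.15, with edgeR for TMM factors only. The code was tested on simulated data.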

Additional observations from a re-analysis of the deposited data

Results flagged for a closer look

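In cavity-type macrophages the age ratio of C4b was -0.90 in BL/6 and 0.88 in SM/J, a gap of 1.78 on the log2 scale. That of Cfb was -2.64 and 1.06, a gap of 3.70. For both genes the aliquots of the ages did not overlap in either strain, and the older ones were lower in BL/6 and higher in SM/J. Both genes lie on chromosome 17, as does C3, whose aliquots overlapped between ages of BL/6. A link of position to the ratios was not tested. In B cell-like cells Cd59a, a membrane regulator that blocks the terminal complex, had ratios of 2.79 and -0.44, a gap of -3.23, with levels of 0.928 and 12.3 CPM in BL/6 and 22.1 and 16.0 CPM in SM/J at 12 and 20 months. Such opposite order of aliquots was seen for 2.77% of genes in cavity-type macrophages and 8.64% in B cell-like cells. With 1 library per strain and age, these differences were not tested.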

How the results depend on the processing

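No paired analysis was possible because each strain and age has 1 library and aliquot numbers pair nothing. Each result was checked under each alternative. Of the checks of log2 ratios, 2614 stayed within the main counting interval, 126 moved out of it and 14 reversed. A reversal was counted only where the main interval excluded 0, so a ratio near 0 could change sign and count as kept. Of the checks of levels 2973 stayed and 253 moved. Shares of cells with a UMI, unthinned or thinned to 500 UMIs, stayed in 127 checks and moved in 233. The remaining checks, of called genes and lymphocyte C1q, stayed in 132 and moved in 36. The cause of the moves below was not tested, except that filters change how many genes are counted. With Prg4 of 3 or more UMIs, strain ratios at 20 months in classical monocyte-like cells reversed to 0.95 (C1qb), 0.63 (Cfp) and 1.54 (C1q), the Cfp age ratio in BL/6 was 1.21, C1qb was at 119 CPM in older BL/6 and C1q at 6813 CPM in cavity-type macrophages of older SM/J. A marker gate gave 0.97, 0.25 and 1.73 for the same 3 ratios, 0.34 for Cfb between ages of SM/J, and 247 CPM of C3 in older BL/6. Without cells of 3 or more C1qb UMIs, C1qb there was at 10.3 CPM. With a mitochondrial limit of 5%, in cavity-type macrophages the C3 age ratio in SM/J was 0.69, the Fcna strain ratio at 12 months 1.23 and C1q in older SM/J 7435 CPM (7374 CPM without cells of 3 or more Cd79a UMIs), while the age ratio of C1qa in BL/6 became -0.0047 and the C1q strain ratio at 12 months -0.16 (-0.0057 with TMM). The C1q age ratio of nonclassical cells in BL/6 became 0.049 at 5% and 0.016 at 20%.

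Complement genes called between ages in cavity-type macrophages were 10 with no filter and 1 with 200 UMIs or TMM in BL/6, and 8 with no filter and 1 at a 5% mitochondrial limit in SM/J. In classical cells they were 11 with no filter in BL/6, and 13 with no filter, 7 with the gate and 1 with 200 UMIs in SM/J. In nonclassical cells, where 3 were called in BL/6, they were 6 with no filter, 0 with 200 UMIs or a pseudocount of 5 CPM, and 1 with either mitochondrial limit, either Prg4 limit, the gate, resolution 2 or complement genes in the clustering; in SM/J they were 5 with no filter. Lymphocytes without a cavity marker UMI held 33.3 and 36.2 C1q UMIs per 100 cells in younger and older SM/J, and 38.4 in older SM/J at the 5% limit.

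Leaving out each aliquot in turn gave, in classical cells, 80.0 to 99.5 CPM of C1qb in older BL/6 and C5ar1 age ratios of 1.37 to 2.45 in BL/6, and in nonclassical cells 0.36 to 0.95 for C5ar1 and -0.92 to 0.085 for C1q between ages of BL/6. In cavity-type macrophages it gave -1.09 to -0.67 for C4b between ages of BL/6, 1.38 to 2.29 for Fcna and -0.0031 to 0.18 for C1q between strains at 12 months, 7041 to 7227 CPM of C1q in older SM/J, and 1 to 3 called genes in BL/6 and 1 to 4 in SM/J; called genes were 3 to 7 and 2 to 5 in classical and 0 to 1 and 0 in nonclassical cells. Cavity-type macrophages numbered 29, 38 and 35 cells in all but 20-month SM/J, which limits the precision there.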

Other observations

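A cluster of 81 cells led by Retnla, Dab2 and Mrc1 stayed unnamed and held C1q outside the classes above. Its best marker list was that of conventional dendritic cells, a name withheld because Retnla was among its leading genes. Flt3 of that list was at 315 and 125 CPM in 12- and 20-month BL/6 and 110 and 7.01 CPM in SM/J. C1q was at 9.39 CPM in 19 cells of 12-month BL/6, 670 CPM (589 to 758) in 35 cells of 20-month BL/6, 55.0 CPM in 4 cells of 12-month SM/J and 2165 CPM (1997 to 2342) in 23 cells of 20-month SM/J. The UMIs sat in few cells: 10 of the 35 cells of 20-month BL/6, where 1 cell held 100 of 251 UMIs, and 11 of the 23 cells of 20-month SM/J, beside 2 UMIs in each 12-month library. Within the cluster the 20-month SM/J cells alone also had mesothelial and fibroblast markers (Upk3b at 109 and Col1a1 at 56.0 CPM), whose part was not tested. Cfp was at 113, 291, 385 and 560 CPM in the same order. C4b was at 98.1 CPM in the 20-month SM/J cells, with Gata6 at 45.5 and Timd4 at 151 CPM, and had no UMI in the other cells of the cluster. Retnla itself was at 4.70 CPM in the 12-month BL/6 cells and at 5255 to 8365 CPM in the others. The antigen presentation gene H2-Ab1 was at 4034 to 5067 CPM in all 4 libraries.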
